A study of Mus musculus with 6 samples.

Results

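The response to DNA double-strand breaks was examined in mouse acute myeloid leukemia (AML) cells with and without *Phf6* through 42 genes, chosen by name as the kinases, break sensors, chromatin mediators, recombination factors, Fanconi anemia proteins and end-joining factors of this response. All 42 were found among the 54532 genes of the deposited count table. A double-strand break is sensed by the MRE11-RAD50-NBN complex and by the Ku heterodimer, and the kinases ATM, ATR and DNA-PK pass the signal on to CHK1, CHK2 and chromatin. The break is then either joined directly, by end joining, or trimmed to single-stranded DNA and repaired from the sister chromatid, by homologous recombination, in which BRCA1, BRCA2 and further recombination factors act on the single strand. The Fanconi anemia proteins repair DNA interstrand crosslinks in the same S-phase machinery, and their inherited loss leads to bone marrow failure and AML.

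The leukemias were made with RUNX1-ETO9a (RE9a), a truncated form of the t(8;21) fusion protein, carried by a retrovirus that also encodes GFP. Fetal liver cells of male *Phf6* fl/y embryos were infected to give *WT Phf6,RE9a*, and cells of male embryos that also carried Vav1-Cre gave *VC Phf6,RE9a*, in which the X-linked *Phf6* is deleted throughout the blood lineage. Both groups share the floxed allele, the fusion and transplantation into male recipients, and they differ in Cre as well as in *Phf6*. GFP+ cells were sorted from the bone marrow, and total RNA was sequenced in 3 libraries per group (replicates 1, 2 and 3 of *WT Phf6,RE9a* and 11, 12 and 13 of *VC Phf6,RE9a*), with 15675358 to 16817994 counted reads each. Nothing in the sources used here says whether the 3 libraries of a group came from separate leukemias, so the p-values measure only the spread between these libraries.

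*Phf6* itself had 1044, 827 and 1142 counts in *WT Phf6,RE9a* and 388, 314 and 331 counts in *VC Phf6,RE9a*. The groups did not overlap, and the level was lower in *VC Phf6,RE9a* by a log2 fold change of -1.66 (SE 0.129, adjusted p = 9.32e-05). In the text that follows, a level is given in CPM (read counts scaled to library size by TMM, not corrected for gene length), a change is the log2 ratio of *VC Phf6,RE9a* to *WT Phf6,RE9a*, and a gene passed the test where its p, adjusted by Benjamini-Hochberg over 14169 genes, was under 0.05 in edgeR's quasi-likelihood test.

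All 42 genes were expressed highly enough to be tested. They were chosen with earlier results of these data known, as were the further pathway genes, markers and motifs below. The shares given beside those of all tested genes are therefore descriptions. Of the 42 genes, 17 (40.5%) were higher in *VC Phf6,RE9a*, where 21.5% of all tested genes were higher, and 3 (7.14%) were lower, where 22.7% of all tested genes were lower. The other 22 did not pass. In either direction, 20 passed, where 44.2% of all tested genes did. Among those that changed by 1.5-fold or more, 9 were higher (15.1% of all tested genes) and 3 were lower (16.7% of all tested genes). The 3 libraries of one group lay entirely above those of the other in 21 genes higher in *VC Phf6,RE9a* (28.9% of all tested genes) and in 3 genes lower in it (28.4% of all tested genes), and the libraries overlapped in 18. The median change over the 42 genes was 0.24, beside 0.013 over all tested genes, 26 of the 42 lay above 0 (50.8% of all tested genes), and the changes ran from -0.90 for *Rad51d* to 1.16 for *Bard1*. In these bulk libraries, a change in the share of cells that carry a transcript and a change in its amount per cell cannot be told apart.

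The number of higher genes changed when a library was left out. It fell from 17 to 11 without *WT Phf6,RE9a* 1, to 9 without *VC Phf6,RE9a* 12 and to 11 without *VC Phf6,RE9a* 13, and was 12 to 17 without any of the others. Over all tested genes, 3047 were higher with all libraries. That number was 2472, 2870 and 3132 without *WT Phf6,RE9a* 1, 2 and 3, and 2179, 2193 and 2404 without *VC Phf6,RE9a* 11, 12 and 13. A fit with a library left out also rests on fewer samples. The 3 *WT Phf6,RE9a* libraries were also less alike than the 3 *VC Phf6,RE9a* libraries. The median coefficient of variation of the 42 genes was 13% for *WT Phf6,RE9a* libraries and 6.52% for *VC Phf6,RE9a* libraries, beside 16% and 9.47% over all tested genes. *WT Phf6,RE9a* 3 was the highest library of its group in 30 of the 42 genes, and *WT Phf6,RE9a* 2 the lowest in 21.

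**Figure D1:**
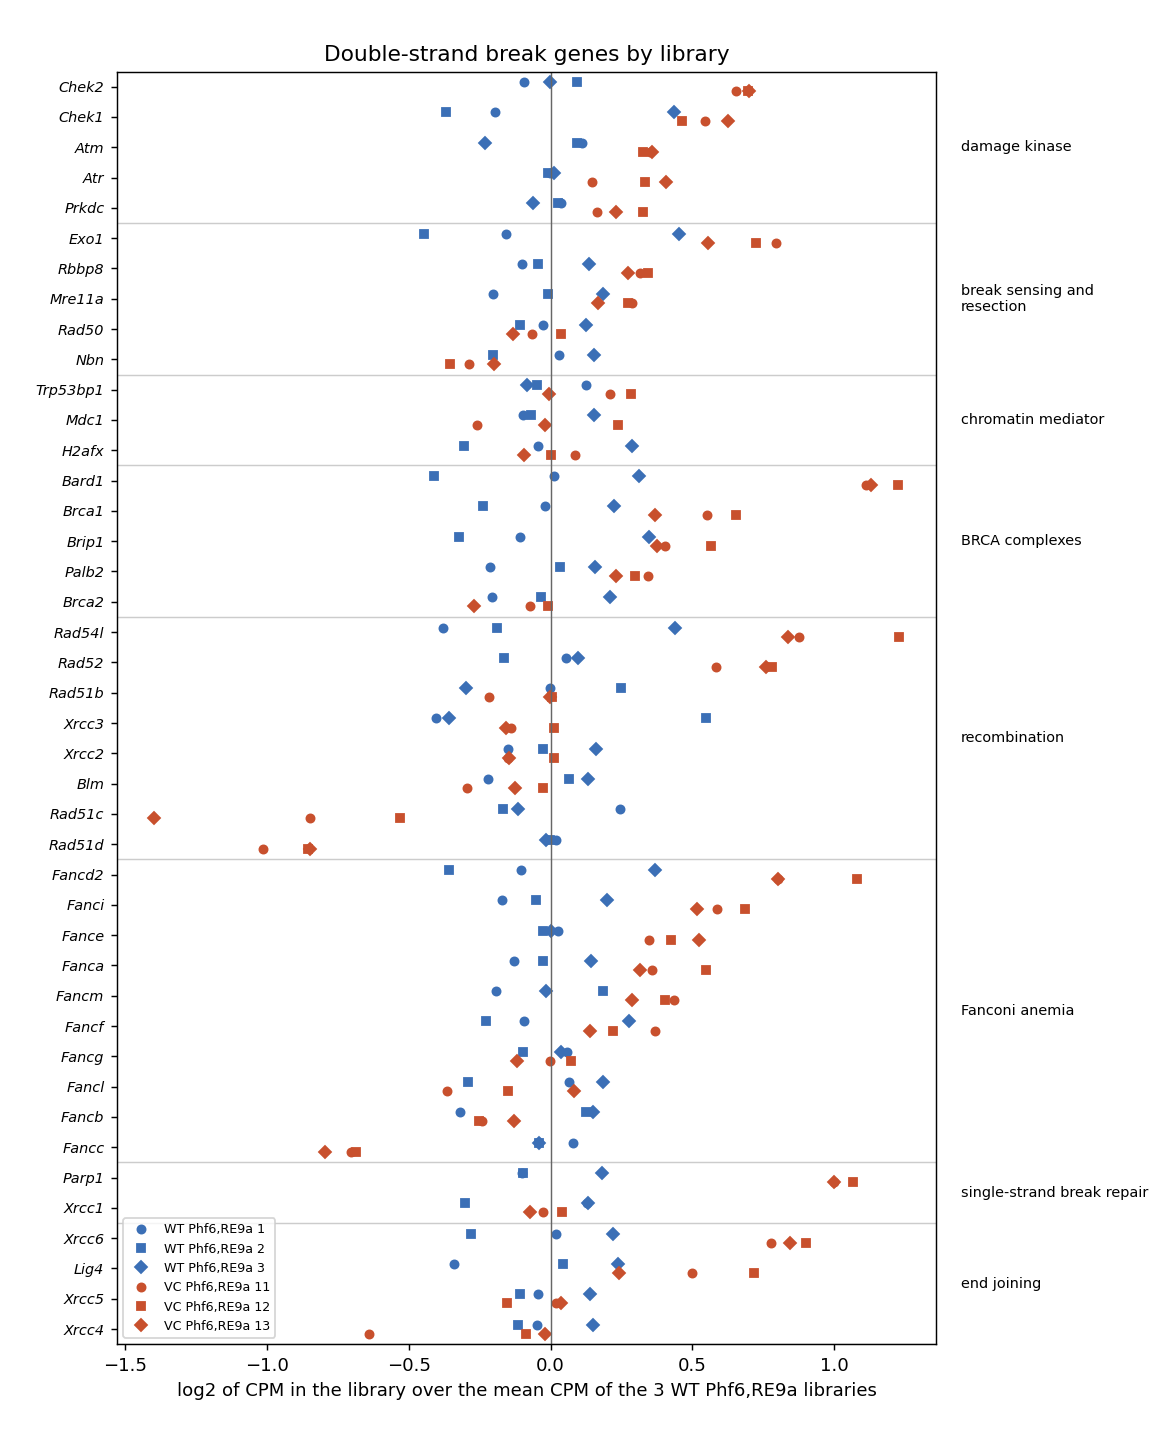
Each of the 42 genes (vertical axis, grouped by role) in each of the 6 libraries, as the log2 of its CPM over the mean CPM of the 3 *WT Phf6,RE9a* libraries (horizontal axis). Blue points are *WT Phf6,RE9a* and red points *VC Phf6,RE9a*, and the red points lie to the right of all blue points in 21 genes and to the left in 3, *Rad51c*, *Rad51d* and *Fancc*.

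Genes of mitosis and DNA replication were described beside these genes, each as a separate list. Of 14 mitosis genes, 11 were higher (21.5% of all tested genes) and 0 lower (22.7% of all tested genes). Their median change was 0.57. Their summed length-corrected level (FPKM) was 328 to 542 in *WT Phf6,RE9a* and 635 to 669 in *VC Phf6,RE9a*. The proliferation marker *Mki67* was among the higher ones, with a change of 0.57 (SE 0.143, adjusted p = 0.0147). Of 16 DNA replication genes, 7 were higher (21.5% of all tested genes) and 0 lower (22.7% of all tested genes). Their median change was 0.41, and their summed FPKM was 452 to 650 and 646 to 694. *Pcna*, the sliding clamp of the replication fork, had a change of -0.08 (SE 0.129, adjusted p = 0.634). Both counts changed when a library was left out. In proportion, they changed more than the count over all tested genes, which was 3047 with all libraries and then 2179 to 3132. The number of higher mitosis genes was 6, 9 and 14 without *WT Phf6,RE9a* 1, 2 and 3. It was 4, 4 and 7 without *VC Phf6,RE9a* 11, 12 and 13. The number of higher replication genes was 14 without *WT Phf6,RE9a* 3 and 1 to 4 without any of the others. The part of cell cycling in the changes of the 42 genes was not tested.

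Markers of blood cell types moved too, where 21.5% of all tested genes were higher and 22.7% were lower. Of the 8 myeloid leukemia markers, 4 were higher and 1 lower, and the leukocyte gene *Ptprc* and the myeloid factors *Spi1* and *Runx1* were detected and did not pass. The 6 erythroid markers were all higher, with a summed FPKM of 1593 to 2499 in *WT Phf6,RE9a* and 4989 to 5679 in *VC Phf6,RE9a*. Of the 6 mast cell and basophil markers, 5 were lower, and the summed FPKM of all 6 was 4739 to 6834 and 635 to 849. Most of the *WT Phf6,RE9a* sum was *Cpa3*, with a mean of 4422 FPKM and then 178. *Ms4a2* did not pass, with means of 417 and 377 FPKM (adjusted p = 0.519). The 5 B cell markers summed to 0.367 to 0.739 FPKM in *WT Phf6,RE9a*, where *Pax5* and *Ms4a1* were listed at 0 in replicates 1 and 2 and *Cd79b* in replicate 2, and to 4.10 to 10.3 in *VC Phf6,RE9a*. All 4 tested B cell markers were higher. The 5 T cell markers summed to at most 0.560 and 3.08 FPKM, and *Lck*, the only one of them with enough reads to be tested, was higher by 3.25 (SE 0.391, adjusted p = 0.000562), with 5, 8 and 16 counts in *WT Phf6,RE9a* and 95, 117 and 90 counts in *VC Phf6,RE9a*. *Cd3e* and *Cd2* were at 0 in *WT Phf6,RE9a* 1 and *Cd3g* in *WT Phf6,RE9a* 1 and 3. Of the 5 macrophage markers, 1 was higher. Which cells these transcripts came from, and their part in the changes of the repair genes, was not tested.

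**Figure D2:**
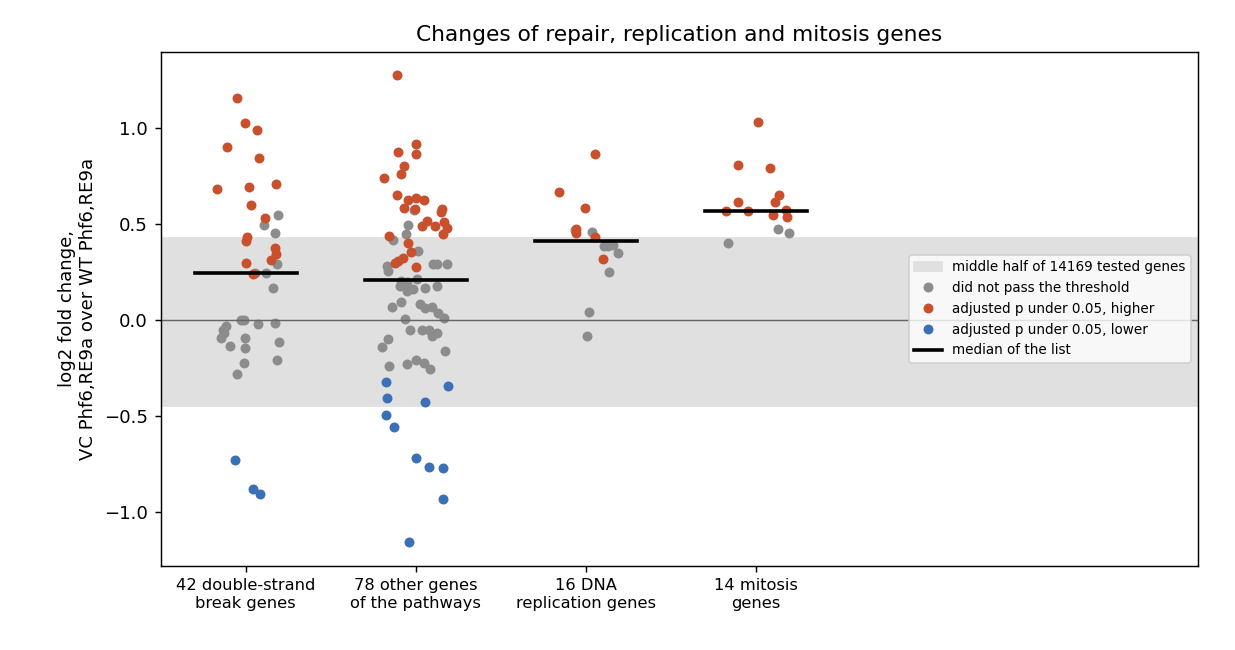
Changes (vertical axis, log2 of *VC Phf6,RE9a* to *WT Phf6,RE9a*) of the 42 double-strand break genes, 78 other genes of the same pathways, 16 DNA replication genes and 14 mitosis genes, 1 point per gene, with a bar at each median. The medians were 0.24, 0.21, 0.41 and 0.57, and the grey band holds the middle of all 14169 tested genes, from -0.45 to 0.43.

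Corrected for gene length, the 42 genes spanned a range of levels. *H2afx*, the histone variant whose phosphorylation marks broken DNA, had the highest mean level in both groups, at 117 FPKM in each. *Parp1* was the next in both, at 33.4 and 67.4 FPKM. At the other end, *Lig4*, *Xrcc4* and *Rad51c* had mean levels of 0.941, 1.11 and 1.28 FPKM in *WT Phf6,RE9a* and were again the lowest 3 in *VC Phf6,RE9a*. Among the 42, *Rad51d* moved from rank 9 to rank 22, *Bard1* from 17 to 10 and *Rad54l* from 26 to 17. The lengths behind these levels equal the sum over all annotated exons in 41 of the 42 genes. For *Rbbp8* the table gives 3867 bases where that sum is 12521, so its level of 14.1 FPKM and its rank of 8 in *WT Phf6,RE9a* rest on another kind of length. For *Atr* this length is 23629 bases, while its longest annotated transcript has 8102, so its level of 3.42 FPKM in *WT Phf6,RE9a* is low in part by construction. Other genes have such a gap too, such as *Fancc* (8359 and 3165 bases) and *Xrcc1* (5831 and 2528 bases), while *Nbn* has none (2533 bases). Ranks across genes depend in part on this length.

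**Figure D3:**
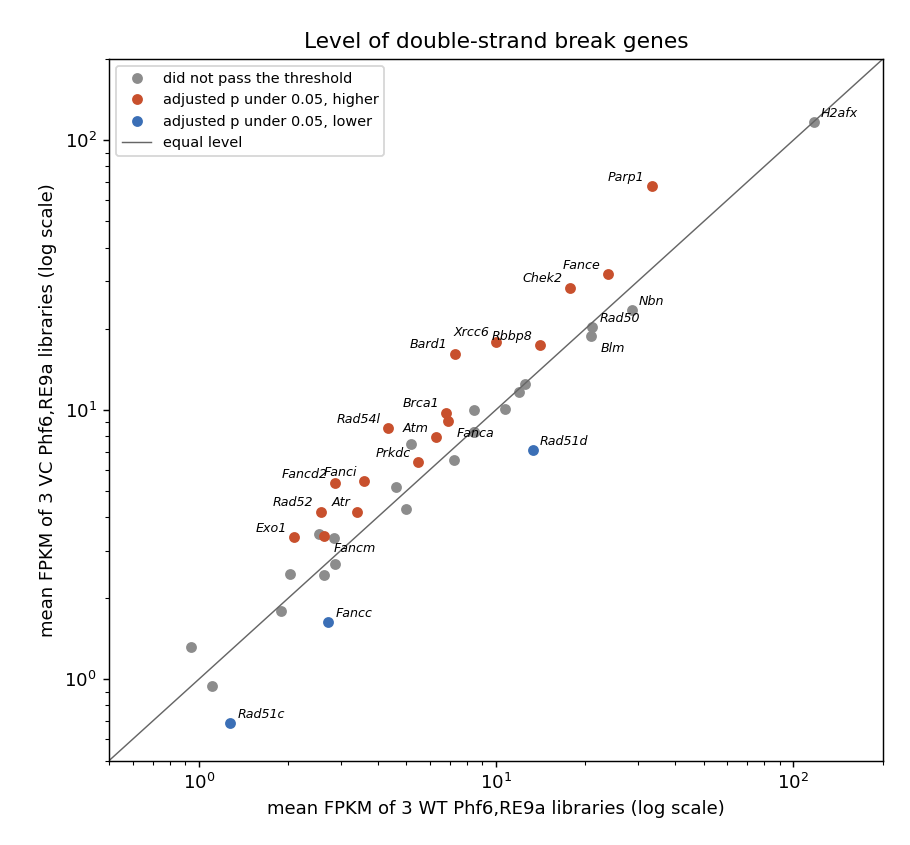
Mean FPKM of each of the 42 genes in the 3 *WT Phf6,RE9a* libraries (horizontal axis) and the 3 *VC Phf6,RE9a* libraries (vertical axis), both on log scales. Red points passed the test as higher, blue points as lower and grey points did not pass. *Parp1* (33.4 and 67.4 FPKM) and *Bard1* (7.28 and 16.1 FPKM) lie above the line of equal level and *Rad51d* (13.3 and 7.07 FPKM) below it.

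The promoters of these genes were searched for 3 motifs of cell cycle genes, because several of the genes are known targets of E2F factors, which switch on genes for S phase. RefSeq promoters, from 250 bases before to 50 bases after the start (build GRCm38.p6), were available for 33 of the 42 genes, with 37 starts. An E2F motif (TTTCCCGC, TTTGGCGC, TTTCGCGC or TTTGCCGC on either strand) was found in 8 of the 37 promoters (21.6%), compared with 3.89% of the 12350 promoters of tested genes and 2.26% of all 32851 promoters. These 8 promoters belonged to 7 genes. They comprised *Chek2*, *Bard1* and *Xrcc6*, which were higher, *Rad51c*, which was lower, and *Mdc1*, *Brca2* and *Fancg*, which did not pass. The 60-base stretch around the match is shown for each of the 7 genes, because it is the feature these promoters share and because genes in all 3 outcomes carry it. The E2F letters are in capitals and the sequence follows the strand of the gene.
*Chek2* (chr5:110839805-110839864, plus strand): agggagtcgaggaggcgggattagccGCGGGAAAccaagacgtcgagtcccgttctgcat
*Bard1* (chr1:71103148-71103207, minus strand): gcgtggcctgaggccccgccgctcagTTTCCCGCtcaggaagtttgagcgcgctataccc
*Xrcc6* (chr15:82016297-82016356, plus strand): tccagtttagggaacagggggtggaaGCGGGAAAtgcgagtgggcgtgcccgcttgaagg
*Rad51c* (chr11:87404952-87405011, minus strand): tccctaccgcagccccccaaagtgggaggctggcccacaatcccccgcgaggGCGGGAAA
*Mdc1* (chr17:35841438-35841497, plus strand): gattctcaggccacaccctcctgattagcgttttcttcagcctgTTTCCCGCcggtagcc
*Brca2* (chr5:150522427-150522486, plus strand): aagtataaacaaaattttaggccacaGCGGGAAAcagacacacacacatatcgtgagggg
*Fancg* (chr4:43010320-43010379, minus strand): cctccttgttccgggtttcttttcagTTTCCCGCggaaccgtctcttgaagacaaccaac

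The same 8 letters, read on one strand or the other, stand in all 7 stretches. The match began 152 bases before the start in *Chek2*, 209 in *Bard1*, 46 in *Xrcc6*, 16 in *Mdc1*, 168 in *Brca2* and 52 in *Fancg*, and 5 bases before it in *Rad51c*, where it runs across the start. The RefSeq start lies inside the gene as the count table draws it in 4 of the 7 genes, by 28534 bases in *Xrcc6*, 205 in *Fancg*, 174 in *Bard1* and 4 in *Chek2*. In *Xrcc6* and *Fancg* the match itself also lies inside. By outcome, an E2F motif was found in 3 of the 14 promoters of higher genes, in 2 of the 3 promoters of lower genes (both starts of *Rad51c*) and in 3 of the 20 promoters of genes that did not pass. The NF-Y motif (CCAAT, either strand) was found in 59.5% of the 37 promoters, beside 37.9% of the promoters of tested genes, and the CHR motif of late cell cycle genes (TTTGAA, either strand) in 5.41%, beside 12.3%. No match of one motif overlapped a match of another. A match is a run of letters and does not show that a factor binds there.

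Of the 5 damage kinases, 4 were higher (21.5% of all tested genes). All 5 had *VC Phf6,RE9a* libraries that lay entirely above the *WT Phf6,RE9a* libraries (28.9% of all tested genes). *Chek2* encodes CHK2, the kinase that ATM switches on to halt the cell cycle. It had 50.3, 57.3 and 53.6 CPM in *WT Phf6,RE9a* and 84.6, 86.9 and 87.3 CPM in *VC Phf6,RE9a*. The 3 libraries of each group lay close together and far from the other group, and *Chek2* was higher by 0.68 (SE 0.0827, adjusted p = 0.000571). *Atm*, the kinase that answers double-strand breaks, had 70.7, 69.9 and 55.7 CPM and then 83.4, 82.0 and 83.8 CPM. *Atr*, its counterpart for single-stranded DNA at stalled forks, had 81.3, 80.8 and 82.0 CPM and then 90.0, 103 and 108 CPM. *Prkdc*, the catalytic subunit of DNA-PK, had 74.1, 73.7 and 69.2 CPM and then 81.1, 90.6 and 84.9 CPM. In these 3 genes the groups were separate but close, and the changes were 0.34 for *Atm* (SE 0.107, adjusted p = 0.0324), 0.30 for *Atr* (SE 0.0892, adjusted p = 0.0282) and 0.24 for *Prkdc* (SE 0.0814, adjusted p = 0.0438). *Chek1*, which encodes CHK1, the kinase downstream of ATR, had 21.0, 18.7 and 32.6 CPM and then 35.1, 33.3 and 37.2 CPM. *WT Phf6,RE9a* 3 stood near the *VC Phf6,RE9a* libraries, and the difference of 0.54 (95% interval 0.07 to 1.02) did not pass (adjusted p = 0.0623). Without that library the difference was 0.82 and passed (adjusted p = 0.00266). *Atm* did not pass without *VC Phf6,RE9a* 11, 12 or 13 (adjusted p 0.0797 to 0.0911). *Atr* did not pass without *WT Phf6,RE9a* 1, 2 or 3 or *VC Phf6,RE9a* 12 or 13 (0.0514 to 0.119). *Prkdc* did not pass with any one of the 6 libraries left out (0.0540 to 0.155). These values are from edgeR's quasi-likelihood test. By DESeq2, *Atm*, *Atr* and *Prkdc* did not pass with all libraries (adjusted p 0.0510, 0.0513 and 0.1175), while *Chek1* did (0.0469). These 3 did not pass by limma on FPKM with either pseudocount. *Chek2* passed by both tools.

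Among the genes that sense the break and trim its ends, 2 of 5 were higher (21.5% of all tested genes). Both act in trimming. *Exo1* encodes the exonuclease that carries resection over long distances. It had 15.9, 13.03 and 24.3 CPM in *WT Phf6,RE9a* and 30.8, 29.4 and 26.1 CPM in *VC Phf6,RE9a*. *WT Phf6,RE9a* 3 came within 2 CPM of the lowest *VC Phf6,RE9a* library, and *Exo1* was higher by 0.69 (SE 0.224, adjusted p = 0.0376). *Rbbp8*, which encodes CtIP, the cofactor that starts resection, was between 51.0 and 60.2 CPM and then between 66.3 and 69.6 CPM, higher by 0.31 (SE 0.0912, adjusted p = 0.0262). Both calls were lost without *WT Phf6,RE9a* 1 or 2 or any one *VC Phf6,RE9a* library, with adjusted p between 0.0604 and 0.109 for *Exo1* and between 0.0517 and 0.0879 for *Rbbp8*. The 3 subunits of the sensor complex did not pass. *Nbn* ran from 63.3 to 81.2 CPM and then from 57.0 to 63.6 CPM, with a difference of -0.28 (adjusted p = 0.0722), and without *WT Phf6,RE9a* 2 the difference was -0.38 with an adjusted p of 0.0125. *Mre11a* had a difference of 0.24 (95% interval -0.02 to 0.51, adjusted p = 0.119), with an adjusted p of 0.0335 without *WT Phf6,RE9a* 3. *Rad50* had one of -0.05 (95% interval -0.27 to 0.16, adjusted p = 0.673).

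None of the 3 chromatin mediators passed the test. *H2afx* ran from 132 to 199 CPM in *WT Phf6,RE9a* and from 153 to 173 CPM in *VC Phf6,RE9a*, so the *VC Phf6,RE9a* libraries lay inside the range of the *WT Phf6,RE9a* libraries. Its difference was below 0.01 in size, with a 95% interval from -0.34 to 0.34. *Mdc1*, the adaptor that binds phosphorylated H2AX, had an interval from -0.32 to 0.32. *Trp53bp1*, which encodes 53BP1, the protein that holds back resection and so favors end joining, had a difference of 0.17 (95% interval -0.08 to 0.41, adjusted p = 0.236). Of the exonic bases of *Trp53bp1*, 15% overlap *Tubgcp4*, and whether the counting used strand is not given in the sources used here.

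**Figure D4:**
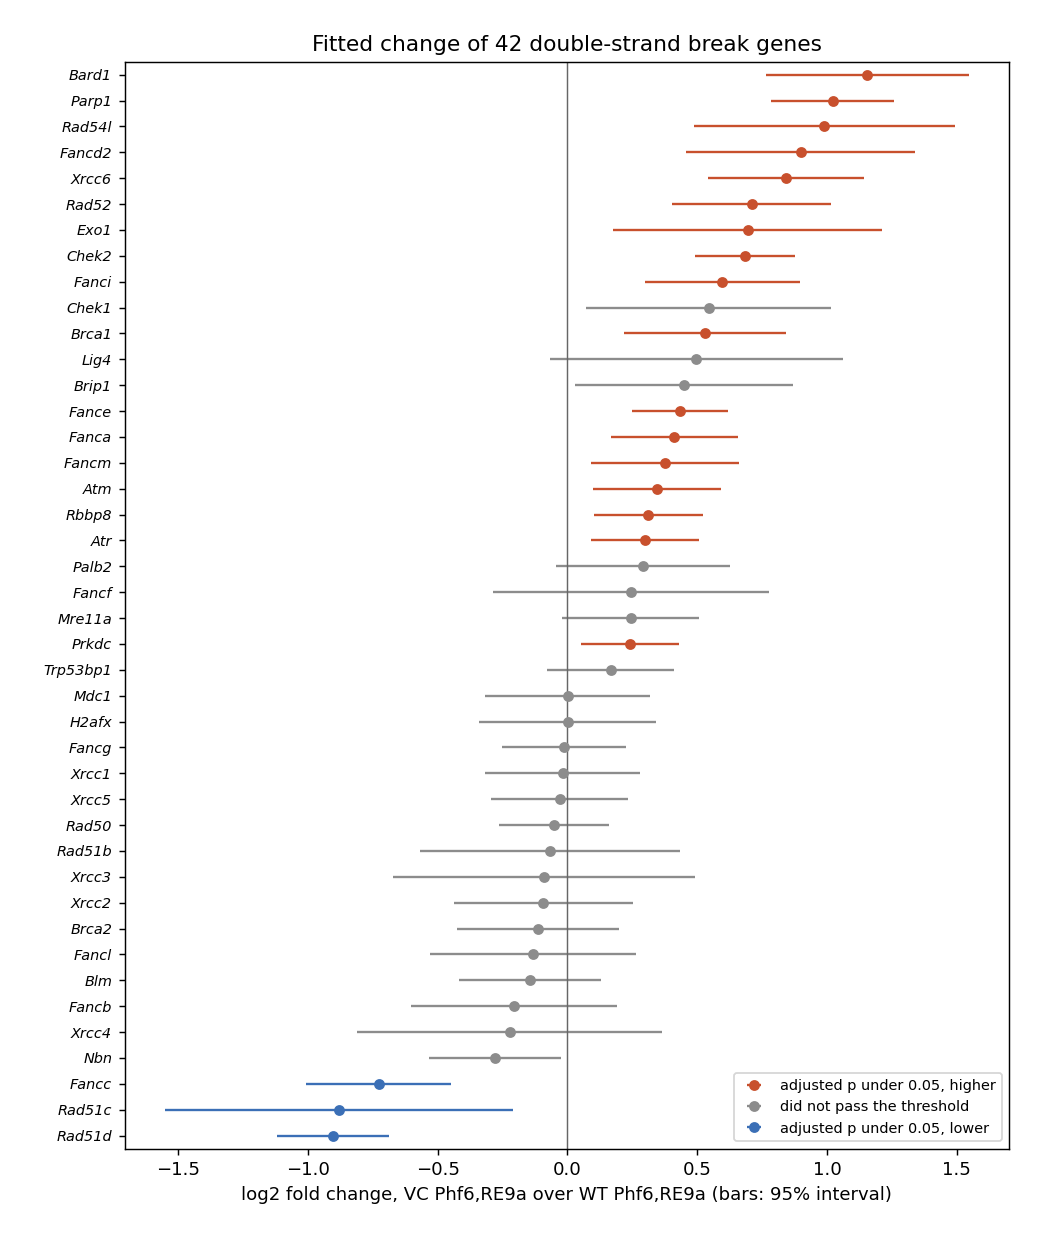
Change of each of the 42 genes (horizontal axis, log2 of *VC Phf6,RE9a* to *WT Phf6,RE9a*) with its 95% interval as a bar, ordered by size, in red where higher, blue where lower and grey where the test was not passed. *Bard1* (1.16) and *Parp1* (1.02) stand at the top, and the intervals of *Fancc*, *Rad51c* and *Rad51d* (-0.90) at the bottom lie wholly to the left of 0.

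Of the 5 genes of the BRCA complexes, the 2 subunits of the BRCA1-BARD1 ubiquitin ligase were higher (21.5% of all tested genes). *Bard1* had 41.8, 31.1 and 51.4 CPM in *WT Phf6,RE9a* and 89.7, 96.8 and 90.8 CPM in *VC Phf6,RE9a*. Every *VC Phf6,RE9a* library was well above every *WT Phf6,RE9a* library, and the change of 1.16 (SE 0.168, adjusted p = 0.00134) was the largest among the 42 genes. *Brca1* ran from 49.5 to 68.3 CPM and then from 75.5 to 92.1 CPM, higher by 0.53 (SE 0.134, adjusted p = 0.0151), and did not pass without *VC Phf6,RE9a* 12 (adjusted p = 0.0596). *Palb2*, the bridge between BRCA1 and BRCA2, and *Brip1*, a helicase that binds BRCA1, had separate groups but did not pass, with differences of 0.29 (95% interval -0.04 to 0.63, adjusted p = 0.140) and 0.45 (95% interval 0.03 to 0.87, adjusted p = 0.0781). Without *WT Phf6,RE9a* 3, *Brip1* passed with 0.65 (adjusted p = 0.0106). *Brca2*, a central mediator of homologous recombination, ran from 31.4 to 42 CPM and from 30.1 to 36.1 CPM, with a difference of -0.11 (95% interval -0.43 to 0.20).

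The further recombination genes were split, with 2 of 8 higher and 2 lower. *Rad54l* encodes RAD54, a motor protein that promotes strand pairing. It had 25.8, 29.4 and 45.5 CPM in *WT Phf6,RE9a* and 61.6, 78.6 and 60.01 CPM in *VC Phf6,RE9a*. *Rad52*, which anneals single strands, had 15.5, 13.3 and 15.9 CPM and then 22.3, 25.6 and 25.2 CPM. The groups were separate in both genes, and *Rad54l* was higher by 0.99 (SE 0.217, adjusted p = 0.00815) and *Rad52* by 0.71 (SE 0.132, adjusted p = 0.00405). Of the exonic bases of *Rad54l*, 15.4% are shared with *Lrrc41*, which was also higher, by 0.45 (adjusted p = 0.00308).

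The 2 lower genes of this class, *Rad51c* and *Rad51d*, encode members of one family of recombination proteins. *Rad51d* had 50.4, 49.7 and 49.1 CPM in *WT Phf6,RE9a* and 24.6, 27.5 and 27.6 CPM in *VC Phf6,RE9a*. Its libraries were tightly grouped on both sides, and it was lower by a log2 change of -0.90 (SE 0.0929, adjusted p = 0.000284). *Rad51c* had few reads, with 6.69, 5.02 and 5.21 CPM and then 3.13, 3.90 and 2.14 CPM. Its change was -0.88 (SE 0.289, adjusted p = 0.0398), and it did not pass without *WT Phf6,RE9a* 1 or 3 or *VC Phf6,RE9a* 11 or 13 (adjusted p 0.0588 to 0.114). The other 3 genes of that family did not pass. *Rad51b* had a difference of -0.07 (95% interval -0.57 to 0.43), *Xrcc2* one of -0.09 (-0.44 to 0.25) and *Xrcc3* one of -0.09 (-0.67 to 0.49), the last with 22.5, 43.6 and 23.2 CPM in *WT Phf6,RE9a*, where replicate 2 stood apart. *Blm*, the helicase that takes apart recombination intermediates, had a difference of -0.15 (-0.42 to 0.13).

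Among the 10 Fanconi anemia genes, 5 were higher (21.5% of all tested genes) and 1 was lower (22.7% of all tested genes). The 2 genes of the ID complex, which is ubiquitinated at crosslinks, rose together. *Fancd2* had 21.4, 17.9 and 29.6 CPM in *WT Phf6,RE9a* and 40.03, 48.5 and 39.99 CPM in *VC Phf6,RE9a*, and was higher by 0.90 (SE 0.190, adjusted p = 0.00694). *Fanci* had 18.6, 20.2 and 24.0 CPM and then 31.5, 33.7 and 30.0 CPM, and was higher by 0.60 (SE 0.129, adjusted p = 0.00764). In both, the groups were separate by more than 5 CPM. Of the exonic bases of *Fanci*, 16% are shared with *Polg*, which did not pass (difference -0.20, adjusted p = 0.0823).

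The core complex that ubiquitinates FANCD2 and FANCI was mixed. *Fancc* was the lower one, with 24.2, 22.3 and 22.3 CPM in *WT Phf6,RE9a* and 14.1, 14.2 and 13.2 CPM in *VC Phf6,RE9a*. The groups were separate with little spread, and the change was -0.73 (SE 0.12, adjusted p = 0.00235). Of its exonic bases, 18.6% are shared with other annotated genes, the most among the 42. *Fance*, which links the core to FANCD2, ran from 74.97 to 77.8 CPM and then from 97.2 to 110 CPM and was higher by 0.43 (SE 0.0798, adjusted p = 0.00385). *Fanca* ran from 55.4 to 66.9 CPM and then from 75.5 to 88.6 CPM and was higher by 0.41 (SE 0.106, adjusted p = 0.0157), and *Fancm*, the DNA translocase that recruits the core, ran from 24.3 to 31.6 CPM and then from 33.9 to 37.6 CPM and was higher by 0.38 (SE 0.123, adjusted p = 0.0390). *Fanca* did not pass without *WT Phf6,RE9a* 1 or *VC Phf6,RE9a* 12 (adjusted p 0.0552 and 0.0639), and *Fancm* did not pass without *WT Phf6,RE9a* 1 or 3 or any one *VC Phf6,RE9a* library (0.0669 to 0.121). *Zfp276*, which shares 10.5% of the exonic bases of *Fanca*, was higher by 0.36 (adjusted p = 0.0444). The 4 others, *Fancb*, *Fancf*, *Fancg* and *Fancl*, the last of which encodes the ligase subunit, did not pass, with differences from -0.21 for *Fancb* to 0.24 for *Fancf*. Of these, *Fancg* had the narrowest 95% interval, from -0.25 to 0.23.

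*Parp1* encodes the sensor that binds DNA nicks and breaks and builds poly(ADP-ribose) chains. It had 166, 166 and 202 CPM in *WT Phf6,RE9a* and 356, 372 and 356 CPM in *VC Phf6,RE9a*. All *VC Phf6,RE9a* libraries were far above the *WT Phf6,RE9a* libraries, and *Parp1* was higher by 1.02, a 2.03-fold difference (SE 0.102, adjusted p = 0.000246). *Xrcc1*, the scaffold that PARP1 calls to single-strand breaks, had a difference of -0.02 (95% interval -0.32 to 0.28, adjusted p = 0.923), with libraries from 40.3 to 54.4 CPM and from 47.2 to 51.1 CPM.

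In end joining, 1 of 4 genes was higher, near the share of all tested genes (21.5%). *Xrcc6*, which encodes Ku70, had 45.8, 37.3 and 52.7 CPM in *WT Phf6,RE9a* and 77.5, 84.5 and 81.2 CPM in *VC Phf6,RE9a*. The groups did not overlap, and *Xrcc6* was higher by 0.84 (SE 0.130, adjusted p = 0.00174). *Desi1*, which shares 7.7% of the exonic bases of *Xrcc6*, was higher by 0.78 (adjusted p = 0.00107). *Xrcc5*, which encodes Ku80, the obligate partner of Ku70, ran from 28.6 to 34.0 CPM and from 27.7 to 31.7 CPM, with a difference of -0.03 (95% interval -0.29 to 0.23, adjusted p = 0.853). *Lig4*, the ligase that closes the break, and *Xrcc4*, its cofactor, had 3.01 to 8.10 CPM in all libraries and did not pass. The difference was 0.50 for *Lig4* (95% interval -0.07 to 1.06, adjusted p = 0.136), with separate groups, and -0.22 for *Xrcc4* (95% interval -0.81 to 0.37, adjusted p = 0.510).

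Because several of these proteins work as fixed partners, the ratio of counts of one gene to its partner was taken within each library, in 15 pairs chosen after the single changes were seen. Such a ratio does not depend on how the libraries are scaled. The groups were separate in 12 of the 15 pairs, 8 with a higher and 4 with a lower ratio in *VC Phf6,RE9a*. Since 57.3% of all tested genes had separate groups on their own and the pairs were picked with the changes in view, this count is a description and nothing is read from it. With 3 libraries against 3, the smallest p that the exact two-sided permutation test can give is 0.1, which those 12 pairs had (adjusted over the 15 pairs, 0.125), so no pair could reach 0.05.

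The ratio of *Parp1* to *Parp2*, the related polymerase that acts at nicks, had the largest shift of the 15. It was 3.25, 3.57 and 3.68 in *WT Phf6,RE9a* and 12.5, 12.2 and 11.7 in *VC Phf6,RE9a*. *Parp1* to *Xrcc1* was 3.06, 4.12 and 3.71 and then 7.30, 7.29 and 7.54. The Ku pair, *Xrcc6* to *Xrcc5*, was 1.53, 1.301 and 1.55 and then 2.48, 3.05 and 2.57. In these 3 pairs one partner was higher while the other was lower or did not pass. *Bard1* to *Brca1* was 0.725, 0.629 and 0.753 and then 1.05, 1.05 and 1.2, in counts not corrected for gene length. In mean FPKM, *Bard1* lay above *Brca1* in both groups, at 7.28 and 6.81 in *WT Phf6,RE9a* and 16.1 and 9.77 in *VC Phf6,RE9a*. In *WT Phf6,RE9a* 2 it lay below, at 5.46 and 5.76 FPKM. *Palb2* to *Brca2* had a mean of 0.414 ± 0.0174 (SD, n = 3) and then 0.548 ± 0.0367 (SD, n = 3). The other pairs with a higher ratio were *Mre11a* to *Rad50*, *Chek2* to *Atm* and *Fancd2* to *Fanci*.

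Among the 4 pairs with a lower ratio, *Rad51d* to *Xrcc2*, whose proteins share a complex, was 3.70, 3.34 and 2.91 in *WT Phf6,RE9a* and 1.81, 1.80 and 2.02 in *VC Phf6,RE9a*. *Nbn* to *Mre11a*, both of the sensor complex, was 1.70, 1.26 and 1.41 and then 0.970, 0.934 and 1.12. Neither *Nbn* nor *Mre11a* passed the test alone. *Rad51c* to *Rad51b* and *Xrcc4* to *Lig4* were also lower, on few reads. The ratios overlapped between groups for *Nbn* to *Rad50*, *Rad51c* to *Xrcc3* and *Chek1* to *Atr*.

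**Figure D5:**
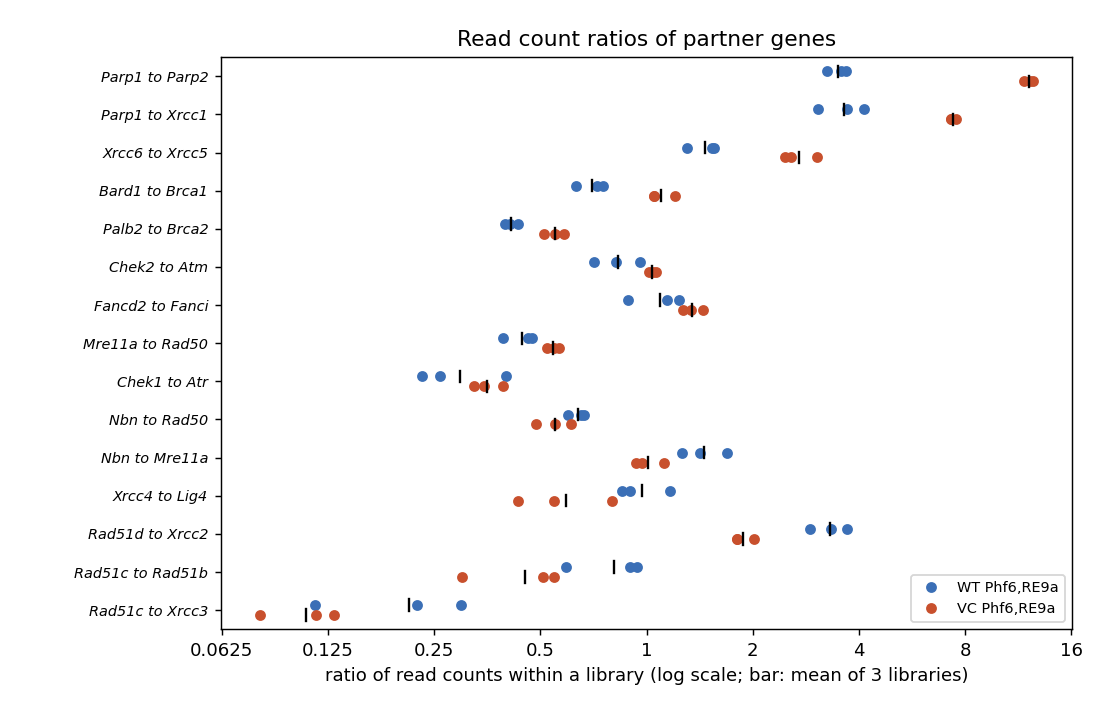
Ratio of counts of one gene to its partner in each of the 6 libraries, for the 15 pairs, on a log scale, with *WT Phf6,RE9a* in blue, *VC Phf6,RE9a* in red and a black bar at each mean. The groups are separate in 12 pairs, and the mean ratio of *Parp1* to *Parp2* was 3.50 and 12.1.

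The rest of the same pathways was described with 78 further genes, all of which were tested. Of these, 28 (35.9%) were higher and 11 (14.1%) were lower, with a median change of 0.21, beside 21.5% and 22.7% of all tested genes and a median of 0.013. These 78 genes too were listed with earlier results of these data known. The number of higher genes was 16 and 17 without *WT Phf6,RE9a* 1 and 2, and 15, 13 and 14 without *VC Phf6,RE9a* 11, 12 and 13. By role, 6 of 7 resection and RPA genes were higher and 1 was lower, 6 of 11 damage signaling genes were higher and 0 lower, and 10 of 27 further recombination genes were higher and 3 lower. The 9 further Fanconi anemia genes had 2 higher and 2 lower. The 13 genes of the ubiquitin and 53BP1 branch had 3 higher and 3 lower. The 11 further end-joining genes had 1 higher and 2 lower, *Aplf* and *Parp2*. *Parp2* was counted there, while *Parp1* was described apart from end joining.

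The 5 higher genes with the smallest p acted in checkpoint signaling, fork handling and the cutting of recombination intermediates. *Rad1*, a subunit of the 9-1-1 checkpoint clamp, had 149, 99 and 177 counts and then 372, 363 and 378 counts, and was higher by 1.27 (SE 0.191, adjusted p = 0.00153). *Rad17*, part of the loader of that clamp, was higher by 0.58 (adjusted p = 0.00234). *Telo2*, needed for the stability of ATM, ATR and DNA-PK, was higher by 0.74 (adjusted p = 0.000597). *Gen1*, which cuts Holliday junctions, was higher by 0.80 (adjusted p = 0.00299), and the DNA helicase gene *Helb* by 0.49 (adjusted p = 0.00257). In these 5 genes the groups did not overlap (28.9% of all tested genes were separate and higher). Picking genes by the smallest p favors this, so nothing is read from it.

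The 5 lower genes with the smallest p came from other branches. *Usp28*, a deubiquitinase that binds 53BP1, had 299, 265 and 299 counts in *WT Phf6,RE9a* and 141, 153 and 129 counts in *VC Phf6,RE9a*, with a change of -1.15 (SE 0.145, adjusted p = 0.000674). *Parp2* had 785, 687 and 906 counts and then 483, 522 and 512 counts, with a change of -0.77 (SE 0.0986, adjusted p = 0.000734), opposite in direction to *Parp1*. *Aplf*, an end-joining factor that binds poly(ADP-ribose), had a change of -0.93 (adjusted p = 0.00355). *Babam2*, a subunit of the BRCA1-A complex, had a change of -0.72 (adjusted p = 0.00146), and *Faap20*, a subunit of the Fanconi core complex, one of -0.77 (adjusted p = 0.00146). The groups did not overlap in any of these 5 genes (28.4% of all tested genes were separate and lower), which were also picked by p.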

How the data were processed

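RNA-seq of GFP+ bone marrow leukemia cells (TruSeq libraries, 3 per group) was analysed from 1 deposited table of raw counts per gene, with FPKM values and gene lengths that the authors computed beside them. The authors' own comparison columns in that deposited table (group means of normalized signal, log2 fold changes and p-values) were not used. The submitters' processing notes name Bowtie 0.12.0 and mm8, while 98.33% of the gene positions in the table equal those of GENCODE M21 (GRCm38). The aligner settings and the use of strand are not given in the sources used here.

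Counts were filtered with filterByExpr, scaled by TMM and tested with edgeR 4.0.16 (R 4.3.3, quasi-likelihood, *VC Phf6,RE9a* minus *WT Phf6,RE9a*, no covariates), with Benjamini-Hochberg adjustment and a threshold of 0.05. Intervals are 95% intervals from the fitted error. Alternatives used DESeq2 1.42.0, limma 3.58.1 on log2(FPKM + 1) or log2(FPKM + 0.1), other scaling and filters, and each library left out. The code was tested on simulated data. The 42 genes, the 78 further pathway genes, the markers and the motifs were chosen with earlier results of these data known. Values per library are given for genes that passed with at least 1.5-fold and for the kinases, and the 5 further pathway genes with the smallest p in each direction are named, with *Phf6*, *Mki67*, *Pcna* and markers at 0. Single results for a few listed genes are not reported here. Replicates differed by more than sampling noise (chi-square per gene 32.5 to 46.4 within *WT Phf6,RE9a* and 11.8 to 15.4 within *VC Phf6,RE9a*), so each library counted as 1 sample. Depth was 15675358 to 16817994 counts, and genes with few reads, such as *Rad51c*, have wide intervals.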

Additional observations from a re-analysis of the deposited data

How the results depend on the processing

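No paired analysis was possible because the replicate numbers differ between the groups. Of the 20 genes that passed, 11 kept the call and its direction under all 13 other settings (scaling, filter, tool, each library left out), 9 lost the call under at least one, and 0 changed direction. The 11 were *Chek2*, *Bard1*, *Rad51d*, *Rad52*, *Rad54l*, *Fancc*, *Fancd2*, *Fance*, *Fanci*, *Parp1* and *Xrcc6*. Of the 22 that did not pass, 5 passed under at least one setting and 12 changed sign under at least one. The number of higher genes among the 42 was 9 at an adjusted p under 0.01, 9 with at least 1.5-fold, 14 by DESeq2 and 9 to 17 with one library left out. Among the 78 further genes, 10 were higher at an adjusted p under 0.01, 11 with at least 1.5-fold and 13 to 31 with one library left out, and 5 were lower with at least 1.5-fold. Among the replication genes, 0 were higher at an adjusted p under 0.01, 2 with at least 1.5-fold, 3 by limma with either pseudocount and 1 to 14 with one library left out. Among the mitosis genes these numbers were 2 at an adjusted p under 0.01, 6 with at least 1.5-fold and 4 to 14 with one library left out. The median change of the 42 genes was 0.20 by limma with a pseudocount of 1.

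Scaling by total counts alone moved the median of all genes up by 0.15 and gave 4048 higher and 2474 lower genes, in place of 3047 and 3213. With it, the median of the 42 genes was 0.39, 7 of the 78 further genes were lower and 11 replication genes were higher. The differences of *Rad50* (0.094), *Brca2* (0.031), *Rad51b* (0.086), *Xrcc2* (0.053), *Xrcc3* (0.059), *Blm* (0.0004), *Fancg* (0.14), *Fancl* (0.013), *Xrcc1* (0.13) and *Xrcc5* (0.11) then turned positive, which is below or near that shift. *Mdc1* and *H2afx*, at 0, turned negative with size factors (-0.0087 and -0.0078), DESeq2 (-0.0075 and -0.0080) and no filter (-0.0048 and -0.0062), and *Mdc1* also by limma (-0.016 and -0.018). With one library left out, the difference ran from -0.069 to 0.034 for *Fancg*, -0.14 to 0.16 for *H2afx*, -0.13 to 0.12 for *Mdc1*, -0.11 to 0.0050 for *Rad50*, -0.21 to 0.064 for *Rad51b*, -0.16 to 0.044 for *Xrcc1*, -0.26 to 0.28 for *Xrcc3* and -0.091 to 0.038 for *Xrcc5*. The cause was not tested.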
